A study of Mus musculus with 6 samples.

Results

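The aryl hydrocarbon receptor (AHR) gene and 5 genes of its response were followed in cultures of mouse embryonic stem (ES) cells on feeder cells. The 5 were Ahrr, Tiparp, Cyp1a1, Cyp1b1 and Nqo1. The cultures were given an auxin analog, which is itself an indole. The genes were taken by name from a table of 55487 genes, and all 6 were found there. They are described because the receptor senses indoles. The ES cells of every library were of the D6AdP line, homozygous for DDX6-AID-mCherry, heterozygous for DCP1a-EGFP and carrying the OsTIR1-FLAG transgene (Tg). DDX6 is an RNA helicase of mRNA repression and decay, AID is the degron that auxins act on, DCP1a is a decapping cofactor, and OsTIR1 is the plant F-box protein that hands a degron-tagged protein to the proteasome. All groups grew on mitomycin C-treated fibroblast feeders with leukemia inhibiting factor, PD0325901 (an inhibitor of MEK) and CHIR99021 (an inhibitor of GSK3). The 3 groups were cells before treatment (0 h) and cells 3 h and 6 h after 500 nM 5-Ph-IAA, with 2 polyA RNA-seq libraries each. The labels describe 1 cell line and do not say whether the libraries of a group were separate cultures. A p-value here sets the difference between times against the spread between libraries of a group, estimated in part from other genes. That spread may be technical. No libraries of untreated cells kept for 3 or 6 h, or of treated cells without the degron, were analysed here. The analog, the hours in culture, any handling of the medium and the intended loss of DDX6 therefore cannot be told apart. The degron acts on DDX6 protein, so RNA counts do not check that loss.

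AHR is a transcription factor of the bHLH-PAS family that waits in the cytoplasm with HSP90 and the cochaperone p23 (encoded by Ptges3). When it binds a ligand, among which are dioxins, polycyclic aromatic hydrocarbons and indoles made from tryptophan, it moves to the nucleus, pairs with ARNT and binds DNA elements with the core GCGTG. Cyp1a1, Cyp1b1, Ahrr and Tiparp are textbook targets. AHRR and TIPARP feed back, the first by competing with AHR for ARNT and for DNA, the second by adding ADP-ribose to AHR. Cyp1a1 and Cyp1b1 encode cytochrome P450 enzymes that oxidise aromatic compounds. Nqo1 encodes a quinone reductase and answers both to AHR and to NRF2, the regulator of the antioxidant response.

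RefSeq promoter windows, from 250 bases before to 50 after the start on GRCm38.p6, were found for 5 of the 6 genes; Ahr had no entry. The core GCGTG was searched on both strands. It was in the windows of Ahrr, Cyp1b1, Cyp1a1 and Tiparp and not in that of Nqo1, and 32.4% of all 32841 windows held it at least once. Ahrr had 3 matches, at positions -107, -82 and -27 from the start, and 3.92% of all windows had 3 or more. The match at -27 was also the only one with the longer form TNGCGTG, found in 5.07% of all windows. None of the 5 windows held TGACNNNGC, the short form of the antioxidant response element, which 12.4% of all windows held. The 4 windows with a core are printed because they show where the receptor's motif lies. They are those of Ahrr and Cyp1b1, which rose by 6 h, of Tiparp, which was not called, and of Cyp1a1, which had too few counts to be tested. Capitals mark GCGTG or, where the match is on the opposite strand, CACGC.
Ahrr (chr13:74292282-74292581, minus strand): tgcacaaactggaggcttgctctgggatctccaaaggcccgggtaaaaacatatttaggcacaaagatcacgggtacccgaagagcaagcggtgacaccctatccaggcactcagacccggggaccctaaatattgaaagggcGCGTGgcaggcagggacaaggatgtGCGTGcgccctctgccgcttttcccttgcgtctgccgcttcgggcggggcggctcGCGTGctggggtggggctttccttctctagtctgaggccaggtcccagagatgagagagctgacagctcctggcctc
Cyp1b1 (chr17:79715012-79715311, minus strand): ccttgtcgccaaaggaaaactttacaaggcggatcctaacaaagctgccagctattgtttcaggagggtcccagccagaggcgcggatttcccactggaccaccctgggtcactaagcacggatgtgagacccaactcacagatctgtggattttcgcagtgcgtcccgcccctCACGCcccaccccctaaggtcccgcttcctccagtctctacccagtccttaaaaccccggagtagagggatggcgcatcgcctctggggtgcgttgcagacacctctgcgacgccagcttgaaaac
Cyp1a1 (chr9:57697363-57697662, plus strand): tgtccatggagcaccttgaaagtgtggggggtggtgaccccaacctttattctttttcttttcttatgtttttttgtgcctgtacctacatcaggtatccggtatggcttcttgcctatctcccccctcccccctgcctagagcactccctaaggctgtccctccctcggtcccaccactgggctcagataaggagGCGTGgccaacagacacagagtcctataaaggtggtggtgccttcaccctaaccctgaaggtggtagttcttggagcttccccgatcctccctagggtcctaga
Tiparp (chr3:65528197-65528496, plus strand): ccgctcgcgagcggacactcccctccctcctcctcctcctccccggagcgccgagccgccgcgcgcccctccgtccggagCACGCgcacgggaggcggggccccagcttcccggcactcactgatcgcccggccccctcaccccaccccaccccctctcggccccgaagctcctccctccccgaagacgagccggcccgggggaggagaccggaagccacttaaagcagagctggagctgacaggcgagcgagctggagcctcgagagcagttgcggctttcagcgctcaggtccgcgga
A match of letters does not show that the receptor binds there, and more distant enhancers lie outside these windows.

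The library totals ran from 16357142 to 21846959 counts, and replicates of a group correlated at r = 0.994 to 0.996 across genes (log2 CPM). Levels are given as CPM, the count scaled to library size with TMM factors. All 16 ES cell markers and all 34 markers of feeder fibroblasts had counts in every library. The summed level of the feeder markers was 31781 and 29004 CPM at 0 h, 27978 and 27485 CPM at 3 h and 31261 and 28070.0 CPM at 6 h. The summed level of the ES markers was 7627 and 7875 CPM at 0 h, 7905 and 7872 CPM at 3 h and 7085 and 7289 CPM at 6 h. No marker of either list was at 0 in any library, so markers of both cell types were in every library. The level or change of a gene here therefore cannot be assigned to ES cells or to feeders. In such mixed samples fewer cells of a type and less RNA per cell cannot be told apart.

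Per length of exon, as RPKM (CPM divided by exon length in kilobases), the 6 genes spanned a wide range. Nqo1 was the highest, between 36.0 and 45.7 RPKM over the 6 libraries. Cyp1b1 (15.3 to 23.2 RPKM) and Tiparp (16.6 to 18.4 RPKM) followed and overlapped. Tiparp had the higher mean at 0 h, 18.2 against 16.7 RPKM for Cyp1b1, and Cyp1b1 the higher mean at 6 h, 22.5 against 17.2 RPKM. Ahr lay below them at 5.25 to 5.65 RPKM, with no overlap with its neighbours in this order. Ahrr measured 0.485 to 0.859 RPKM and Cyp1a1 at most 0.0998 RPKM. Among all genes tested, the mean RPKM of Nqo1 stood at percentile 92.4, that of Cyp1b1 at 81.4, of Tiparp at 81.1, of Ahr at 54.4 and of Ahrr at 18.6. The lengths count every annotated exon of a gene, so a gene used mainly as a short isoform is understated.

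**Figure D1:**
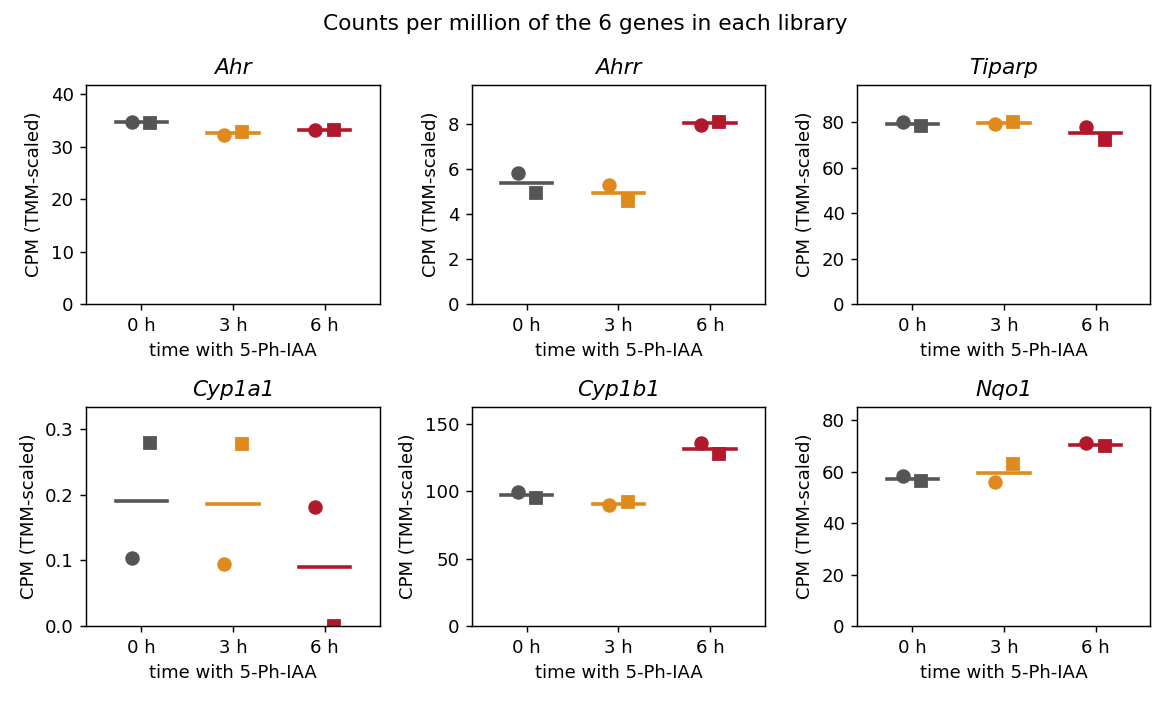
TMM-scaled CPM (y axis, from 0) of the 6 genes at 0, 3 and 6 h (x axis). Circles are replicate 1, squares replicate 2 and bars the mean of the 2. Cyp1b1, Ahrr and Nqo1 are higher in both 6 h libraries than in the other 4, whereas Ahr and Tiparp lie within 32.4 to 34.8 and 72.1 to 80.2 CPM and Cyp1a1 is at most 0.278 CPM.

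Ahrr, Cyp1b1 and Nqo1 rose by 6 h, by 49.7%, 34.9% and 23.1% of the 0 h level, and none of the genes was called at 3 h. Of the 5 genes tested, edgeR, DESeq2 and limma voom each called 0 at 3 h, and 1, Cyp1b1, had an unadjusted p under 0.05 in edgeR. Of all genes tested, 0.184% were called at 3 h (0.0699% higher, 0.114% lower). An unadjusted p below 0.05 was reached by 10.8%. At 6 h against 0 h 3 of the 5 were called, all higher, where 22.2% of all genes were called, 9.92% higher and 12.3% lower. At 6 h against 3 h the same 3 were called higher, where 21.4% of all genes were called, 9.71% higher and 11.7% lower.

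The libraries of 3 h and 0 h did not overlap for 2 of the 5, both lower, against 20.5% of all genes higher and 21.8% lower. Those of 6 h and 0 h did not overlap for any of the 5, with 3 higher and 2 lower, against 29.6% and 29.9% of all genes. Those of 6 h and 3 h gave 4 higher and 1 lower, against 30.8% and 30.0%. These comparisons share libraries, 0 h in the first 2 and 6 h in the last 2. The median log2 fold change of the 5 was -0.09 at 3 h and 0.30 at 6 h against 0 h, where the medians of all genes were -0.00093 and 0.0019. The changes of Ahrr, Cyp1b1 and Nqo1 at 6 h stood at percentiles 95.2, 91.3 and 85.4 of all genes tested, and those of Ahr and Tiparp at 37.0 and 33.6.

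The receptor gene itself was not called in any comparison. Ahr (ENSMUSG00000019256, chromosome 12, 35497974 to 35535038, GRCm38) measured 34.8 and 34.5 CPM at 0 h, 32.4 and 32.8 CPM at 3 h and 33.3 and 33.3 CPM at 6 h. The 0 h libraries were the highest of the 6, and the groups did not overlap, but the whole range was under 3 CPM. The 3 h level differed from that of 0 h by a log2 fold change of -0.09 ± 0.06 (SE), for which edgeR gave an adjusted p = 0.602. The 6 h level differed by -0.06 ± 0.06 (adjusted p = 0.505). The 95% intervals reached down to 0.866 and 0.882 of the 0 h level and up to 1.02 and 1.04 of it. A non-coding gene of the other strand, Gm48236, covers 2.06% of the exon length of Ahr, and whether strand was used in counting is not known here.

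Ahrr, the AHR repressor (ENSMUSG00000021575, chromosome 13, 74211118 to 74292331), had counts of 112 and 107 in the untreated libraries, 112 and 99 after 3 h, then 132 and 151 after 6 h in the shallowest libraries. Scaled, it measured 5.81 and 4.96 CPM at 0 h, 5.30 and 4.58 CPM at 3 h and 7.96 and 8.11 CPM at 6 h. Both 6 h libraries lay above the other 4, and the 0 h and 3 h libraries overlapped. Ahrr rose by 49.7% from 0 to 6 h (log2 fold change 0.58 ± 0.14, 95% interval 0.30 to 0.87, edgeR adjusted p = 0.00516). This call was lost with DESeq2 (adjusted p = 0.0520) and without replicate 2 of 0 h (log2 fold change 0.47, adjusted p = 0.0588). Over the 13 alternatives its adjusted p ran from 0.000505 to 0.0588. From 3 to 6 h it rose 1.63-fold (log2 fold change 0.70 ± 0.14, adjusted p = 0.00166), which all 13 alternatives called. At 3 h its log2 fold change was -0.12 ± 0.14 (adjusted p = 0.816), with an interval from -0.42 to 0.18.

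Tiparp, the ADP-ribosyltransferase that targets AHR (ENSMUSG00000034640, chromosome 3, 65528410 to 65555518), measured 80.2 and 78.2 CPM at 0 h, 79.3 and 80.1 CPM at 3 h and 78.0 and 72.1 CPM at 6 h. The 0 h and 3 h libraries overlapped, and both 6 h libraries lay below the other 4. The log2 fold change of Tiparp was 0.01 ± 0.05 at 3 h (interval -0.09 to 0.11, adjusted p = 0.963) and -0.08 ± 0.05 at 6 h (interval -0.18 to 0.02, adjusted p = 0.255). The upper ends of these intervals are 1.08-fold at 3 h and 1.01-fold at 6 h. A pseudogene of the other strand covers 5.12% of its exon length.

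Of the enzymes, Cyp1a1, the gene most used to report AHR activity (ENSMUSG00000032315, chromosome 9, 57687928 to 57703824), was at the edge of detection. Untreated libraries gave 2 and 6 counts of it, those of 3 h gave 2 and 6 again, and those of 6 h gave 3 and 0. The 3 groups overlapped. Cyp1a1 alone of the 6 genes did not pass the filter on low counts, so it was not in the test. Summed over libraries, its 6 h level was 0.0852 CPM, with an exact Poisson interval from 0.0176 to 0.249 CPM. The ratio of 6 h to 0 h was 0.435, with an exact counting interval from 0.0744 to 1.81, and that of 3 h to 0 h was 0.956, from 0.313 to 2.92. These intervals cover counting error only. In the fit with no filter on low counts, the adjusted p of Cyp1a1 was 1 at 3 h and 0.671 at 6 h. Cyp1a2, its liver-type neighbour in the family, had 2 counts in replicate 2 of 0 h and 0 in the other libraries.

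Cyp1b1, the P450 of this family found in fibroblasts and other cells outside the liver (ENSMUSG00000024087, chromosome 17, 79701537 to 79715061), had the smallest p of the 5 genes tested in all 3 comparisons. It measured 99.5 and 95.2 CPM at 0 h, 89.5 and 92.2 CPM at 3 h and 135 and 127 CPM at 6 h. The 3 h libraries were the lowest and the 6 h libraries the highest, with no overlap between any 2 groups. Cyp1b1 rose 1.35-fold from 0 to 6 h (log2 fold change 0.43 ± 0.04, interval 0.34 to 0.52, adjusted p = 2.14e-06) and 1.44-fold from 3 to 6 h (0.53 ± 0.04, adjusted p = 3.90e-07). By p it ranked 102 of the 15748 genes tested in the first of these and 28 in the second, and all 13 alternatives called both. The lower level at 3 h did not pass (log2 fold change -0.10 ± 0.04, unadjusted p = 0.0347, adjusted p = 0.416).

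Nqo1, the quinone reductase (ENSMUSG00000003849, chromosome 8, 107388225 to 107403206), measured 58.4 and 56.2 CPM at 0 h, 56.0 and 62.8 CPM at 3 h and 71.0 and 69.9 CPM at 6 h. The 3 h libraries spanned those of 0 h, and both 6 h libraries were above the rest. Nqo1 rose 1.23-fold from 0 to 6 h (log2 fold change 0.30 ± 0.06, interval 0.18 to 0.42, adjusted p = 0.000938), a call that all 13 alternatives made. From 3 to 6 h it rose 1.19-fold (0.25 ± 0.05, adjusted p = 0.00434), which was lost without replicate 1 of 3 h (adjusted p = 0.0794) and with the feeder markers as a covariate (adjusted p = 0.0505). At 3 h its log2 fold change was 0.05 ± 0.05 (interval -0.06 to 0.17, adjusted p = 0.783).

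**Figure D2:**
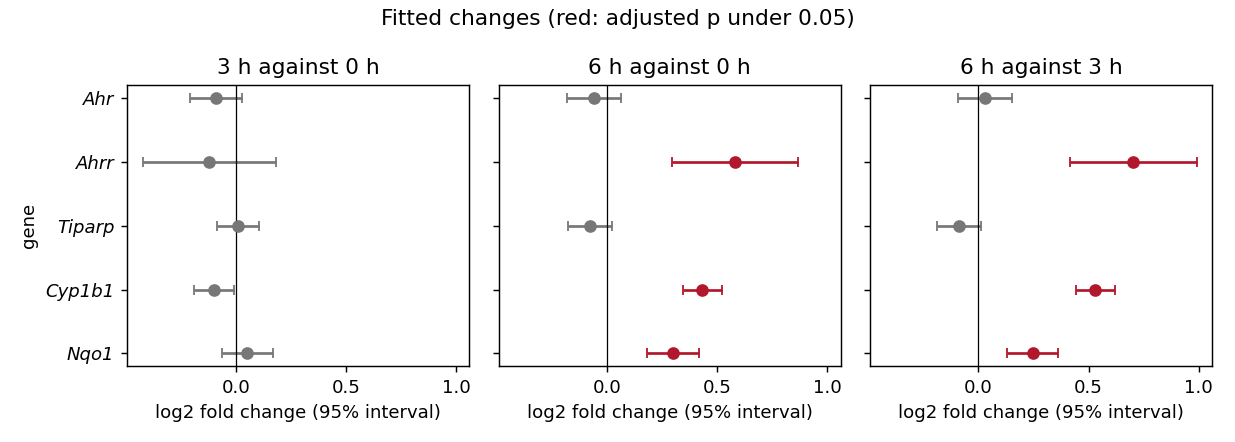
Log2 fold change (x axis) with its 95% interval for the 5 genes tested (y axis), in 3 comparisons. Red marks an adjusted p under 0.05. No gene is red at 3 h, and Ahrr, Cyp1b1 and Nqo1 are red in both comparisons with 6 h, at 0.58, 0.43 and 0.30 against 0 h.

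Markers of the feeder cells were read beside these changes. Of 34 markers none was called at 3 h, though all 34 had a log2 fold change below 0, with a median of -0.14. At 6 h against 0 h the median was -0.02, with 2 higher, the collagens Col6a2 and Col6a3, and 1 lower, Ccn2. Of all genes tested, 9.92% were called higher and 12.3% lower in that comparison. The collagen calls were lost with DESeq2 (adjusted p = 0.0852 and 0.0764). That of Col6a2 was also lost without any of the 4 libraries compared (0.0561 to 0.0787), and that of Col6a3 without either 0 h library or replicate 1 of 6 h (0.0600 to 0.202). At 6 h against 3 h the median was 0.13, with 12 higher and none lower, where 9.71% of all genes were higher. Of the 16 ES markers 4 were called higher and 8 lower at 6 h against 0 h, beside the same 9.92% and 12.3% of all genes. With the mean of the feeder markers as a covariate, the log2 fold change at 6 h against 0 h was 0.45 for Cyp1b1, 0.60 for Ahrr and 0.31 for Nqo1, and all 3 were called. With the same covariate the change of Cyp1b1 at 3 h was 0.01 (adjusted p = 0.986). This fit rests on the small differences in feeder markers between libraries of a group. It cannot tell a change within feeder cells from a change within ES cells. The part of feeder RNA in these changes was not tested.

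**Figure D3:**
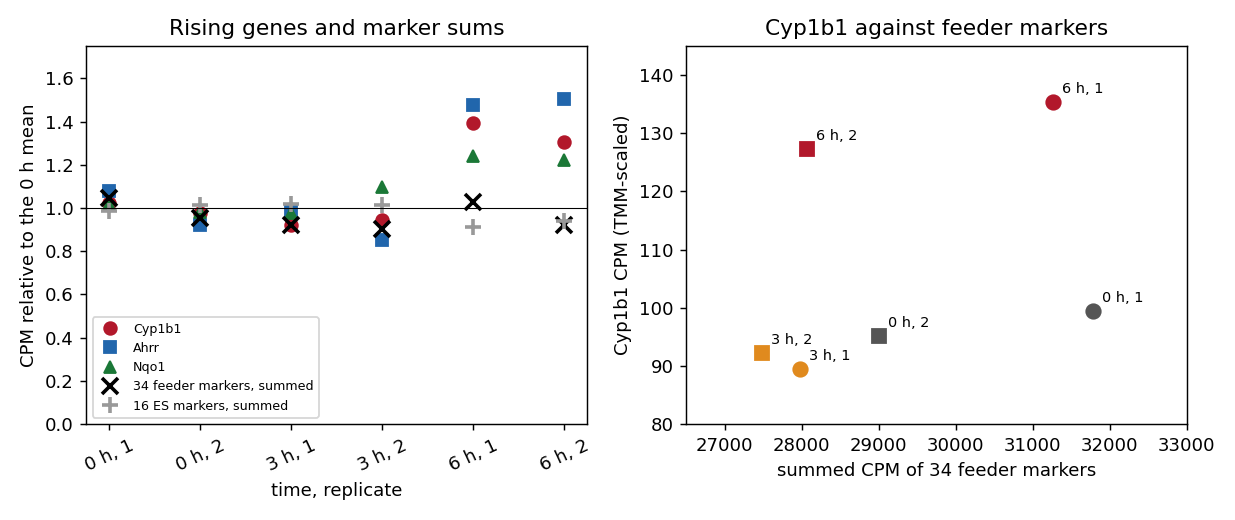
Left, CPM of Cyp1b1, Ahrr and Nqo1 and of the summed feeder and ES markers in each library (x axis), relative to the 0 h mean (y axis, from 0). Right, Cyp1b1 CPM (y axis) against the summed CPM of 34 feeder markers (x axis), both axes not from 0, with circles for replicate 1 and squares for replicate 2. At 6 h Cyp1b1 lies at 135 and 127 CPM, and the 0 h libraries at 99.5 and 95.2 CPM.

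All 12 genes of a list of AHR partners, chaperones and coregulators were tested, and none was called at 3 h. At 6 h against 0 h 3 rose and none fell, with a median log2 fold change of -0.02. The share called in either direction, 3 of 12, is near the 22.2% of all genes tested. All 3 were higher, where 9.92% of all genes were called higher and 12.3% lower, and the list was not tested as a set. The 3 were Ncoa2, Nrip1 and Ncoa1, which encode nuclear receptor coregulators. Ncoa2 measured 51.6 and 54.9 CPM at 0 h, 56.7 and 53.1 CPM at 3 h and 72.1 and 71.8 CPM at 6 h. Both 6 h libraries were above the rest, and the log2 fold change was 0.43 ± 0.05 (adjusted p = 1.56e-05), called by all 13 alternatives. Nrip1 rose by 0.23 ± 0.06 (adjusted p = 0.00975), a call lost with DESeq2 (0.0995) and without replicate 2 of 6 h (0.105). Ncoa1 rose by 0.19 ± 0.06 (adjusted p = 0.0218). That call was lost with DESeq2 (0.170), without either 0 h library (0.0563 and 0.0778) and without replicate 1 of 6 h (0.117). Arnt, the partner with which AHR binds DNA, measured 110 ± 1.70 CPM at 0 h and 104 ± 0.902 CPM at 6 h (SD, n = 2 each), a log2 fold change of -0.07 ± 0.04 (adjusted p = 0.195). The chaperone genes had log2 fold changes at 6 h of -0.02 for Hsp90aa1, -0.0035 for Hsp90ab1 and -0.03 for Ptges3, with adjusted p from 0.647 to 0.924.

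Of 18 other known AHR targets 10 were tested, and none was called at 3 h. At 6 h 4 of the 10 fell and none rose (median log2 fold change -0.15), where 12.3% of all genes were called lower and 9.92% higher. With 10 genes tested, a count of 0 higher is near the 9.92%, while 4 of 10 lower is above the 12.3%. The list was not tested as a set. Ereg, Slc7a5 and Hes1 were among those that fell. Ereg, a ligand of the EGF receptor, measured 19.6 and 18.6 CPM at 0 h, 13.8 and 15.8 CPM at 3 h and 10.73 and 11.004 CPM at 6 h. Its groups did not overlap, with the highest values at 0 h and the lowest at 6 h (log2 fold change at 6 h -0.81 ± 0.09, adjusted p = 1.20e-05). Slc7a5, a transporter of large neutral amino acids, fell by 0.28 on the log2 scale (adjusted p = 0.000126), and both calls held in all 13 alternatives. Hes1, a transcriptional repressor, fell by 0.22 (adjusted p = 0.00915), which was lost with DESeq2 (0.0847) and without replicate 2 of 0 h (0.0993) or of 6 h (0.0671). Aldh3a1, an aldehyde dehydrogenase induced by AHR ligands in other tissues, had 12 to 25 counts per library and a log2 fold change of 0.29 ± 0.34 (adjusted p = 0.598). The 8 that were not tested were Cyp1a2, Ugt1a6a, Ugt1a6b, Gsta1, Gsta2, Scin, Fgf21 and Il22.

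Genes of the NRF2 response, to which Nqo1 also belongs, went both ways. All 28 on that list, which leaves out Nqo1 itself, were tested, none was called at 3 h, and at 6 h 4 rose and 7 fell (median log2 fold change -0.02), where 9.92% of all genes rose and 12.3% fell. The lowest adjusted p were those of Mafg, Gclc, Hmox1 and Ftl1, all lower. Mafg encodes a small MAF protein that pairs with NRF2, Gclc the catalytic subunit for glutathione synthesis, Hmox1 heme oxygenase and Ftl1 ferritin light chain. Gclc measured 105 and 108 CPM at 0 h, 113 and 117 CPM at 3 h and 82.7 and 75.0 CPM at 6 h. It was highest at 3 h and lowest at 6 h, with no overlap, and its log2 fold change at 6 h was -0.43 ± 0.05 (adjusted p = 6.68e-06). Mafg fell by 0.44, Hmox1 by 0.40 and Ftl1 by 0.12 (adjusted p = 1.34e-06, 1.59e-05 and 0.00616). The call of Ftl1 was lost without replicate 1 of 0 h (0.0712), and a gene of the other strand covers 26.5% of its exon length. The 4 that rose, named here after their values were seen, were Slc7a11 (0.48), Cbr3 (0.24), Srxn1 (0.15) and Abcc1 (0.13), and DESeq2 called none of them (adjusted p from 0.0776 to 0.160). Each was also lost without replicate 1 of 6 h and without 1 of the 0 h libraries (0.0525 to 0.169). Nfe2l2, which encodes NRF2, measured 137 ± 3.90 CPM at 0 h and 128 ± 0.290 CPM at 6 h (log2 fold change -0.10 ± 0.04, adjusted p = 0.0577).

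In the families of AHR and TIPARP no gene was called at 3 h. Of 22 bHLH-PAS and p160 coactivator genes, 21 were tested, and at 6 h 4 rose and 1 fell, with a median log2 fold change of 0.00035. The share called in either direction, 5 of 21, is again near the 22.2% of all genes. By direction 4 of 21 were higher and 1 of 21 lower, where 9.92% of all genes were higher and 12.3% lower. Those that rose were Ahrr, the coactivator genes Ncoa2 and Ncoa1, and the clock gene Per3. Per3, with a change of 0.48 (adjusted p = 0.0254), was lost with DESeq2 (0.183), without either 0 h library (0.0615 and 0.0932) and without replicate 2 of 6 h (0.105). The 1 that fell was Npas4, an activity-induced factor best known from neurons, which had 67 and 57 counts in the 0 h libraries and 26 and 22 in those of 6 h (log2 fold change -1.15 ± 0.24, adjusted p = 0.00233). Of 11 PARP-family transferase genes including Tiparp, 1 rose at 6 h, Parp12 (0.48 ± 0.10 on the log2 scale, adjusted p = 0.00281). A count of 1 in 11 is near the 9.92% of all genes called higher. Parp12 measured 11.5 and 10.3 CPM in untreated cells and 13.9 and 16.4 CPM at 6 h, and without replicate 2 of 6 h its adjusted p was 0.0537. Immediate early genes, a group in which Tiparp is often counted, had 17 of 25 lower and none higher at 6 h (median log2 fold change -0.38, against 12.3% of all genes lower), and at 3 h 1, Myc, was lower (-0.31, adjusted p = 0.0436).

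**Figure D4:**
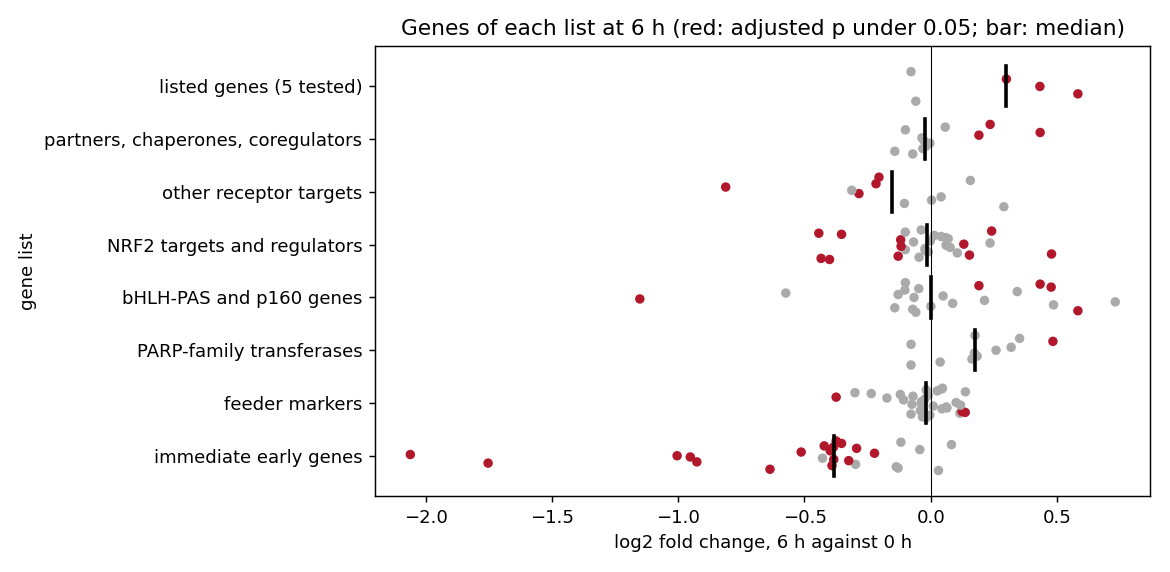
Log2 fold change at 6 h against 0 h (x axis) of the tested genes of 8 lists (y axis). Each point is a gene, red where the adjusted p is under 0.05, and the bar is the list's median. The median of the 5 listed genes tested, 0.30, is the value of Nqo1, and Cyp1a1 is not among them. The medians of the other receptor targets and of the immediate early genes lie at -0.15 and -0.38.

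By pattern over the 6 libraries, the genes most like each member were found by Pearson's r of log2 CPM, as a description with no test. They were Man1a, Plxdc1 and Fbf1 for Cyp1b1 (r = 0.998, 0.998 and 0.997), Ttpa, Zfp72 and Plpp6 for Ahrr (0.996, 0.994 and 0.994) and Flywch1, Zfp467 and Tnfaip8 for Nqo1 (0.998, 0.993 and 0.992). With so few libraries such values are common. Of 5575 genes compared, 251 had r above 0.95 with Cyp1b1, 188 with Ahrr and 98 with Nqo1. For Tiparp and Ahr, which varied least, the counts were 17 and 5 of 5576, led by Ifnar2 (0.993) for Tiparp and Pemt (0.986) for Ahr.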

How the data were processed

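RNA-seq of polyA RNA was measured in 6 libraries, 2 for each time, grouped by their titles. The deposited table holds unnormalized counts of reads for each Ensembl gene, which the authors made with fastp 0.22.0, HISAT2 2.2.1 and featureCounts 2.0.3 on GRCm38 (mm10), per the submitters' processing notes. Which annotation release, strand setting and rule for multi-mapped reads were used is not stated in the sources used here. RNA integrity numbers were over 8.0, per the labels' protocols.

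Symbols, positions and exon lengths came from GENCODE M21 on the same build, which named 55227 of 55487 IDs. Genes were kept by filterByExpr (minimum count 10), which left 15748 genes and 99.9% of the counts. The 6 libraries were fitted together, 1 mean a group, with the quasi-likelihood test of edgeR 4.0.16 (R 4.3.3) after TMM scaling, which left 3 residual and 13.5 prior degrees of freedom. Calls are at a Benjamini-Hochberg adjusted p under 0.05 over all genes tested, two-sided. The standard error (SE) is the absolute log2 fold change divided by the square root of F. The 95% intervals use the total degrees of freedom. A floor of 3 counts was 0.139 to 0.181 CPM. No replicate pair was a duplicate (chi-square of 2.07 to 7.08 for each degree of freedom). The alternatives were DESeq2 size factors, no filter, DESeq2 1.42.0, limma 3.58.1 voom, a replicate block, a covariate of feeder markers, the 4 libraries of a comparison alone, and each library left out in turn. With 2 libraries against 2, an exact permutation test cannot go below p = 0.333, so none was used. The same alternatives were run for the other named genes after seeing the data.

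The 6 genes, the lists and the tests were chosen with earlier results of these data known. Of each list, up to 4 called members with the smallest adjusted p at 6 h are named. Members of the partner and target lists may be named, and some are not reported here.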

Additional observations from a re-analysis of the deposited data

How the results depend on the processing

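The 3 calls at 6 h against 0 h and at 6 h against 3 h, and the absence of calls at 3 h, held under the 13 alternatives but for the cases of Ahrr and Nqo1 given above. Without a library, the number of the listed genes called was 0 at 3 h and 2 to 3 in both comparisons with 6 h. DESeq2 called 2 at 6 h against 0 h, and the feeder covariate 2 at 6 h against 3 h. The direction turned for 3 changes that were not called at 3 h, Cyp1b1 with the feeder covariate (0.0072), Nqo1 without replicate 2 of 3 h and Tiparp without replicate 2 of 0 h, and the cause was not tested. Without a library, the change of Nqo1 at 3 h ran from -0.0322 to 0.133 and that of Tiparp from -0.0130 to 0.0337.

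The number of all genes called at 3 h was 29. It was 234 when low genes were left in, 12 with DESeq2, 52 with the feeder covariate, 82 with the 4 libraries compared and 4 (without replicate 1 of 3 h) to 260 (without replicate 2 of 0 h) when a library was left out. The counts with 6 h were 3503 against 0 h and 3375 against 3 h. DESeq2 gave 1701 and 1449, the feeder covariate gave 1872 for the second, and leaving out a library gave 2425 to 3080 and 1531 (without replicate 2 of 3 h) to 3682. Of the 52 genes called at 3 h with the feeder covariate, 7 were among the 29. The cause of these shifts was not tested.

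The libraries share replicate numbers, which the main fit did not take as pairs. Differences between replicates had little relation across times (r = 0.0372, 0.0401 and -0.0212 across genes), which does not exclude a pairing. With a replicate block more genes were called in each comparison, 262 at 3 h, 4147 at 6 h against 0 h and 4142 at 6 h against 3 h. The calls among the listed genes did not change. Depth limits Cyp1a1, whose pooled counts allow a rise of up to 1.81-fold at 6 h by counting error alone, without the spread between libraries.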

Other observations

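Genes of other routes by which cells handle foreign compounds and tryptophan were also read. Of 12 genes of the PXR and CAR receptors (Nr1i2 and Nr1i3) and their targets 4 were tested. At 6 h against 0 h 2 of them fell and none rose, where 12.3% of all genes were called lower and 9.92% higher. Abcb1a, an efflux pump for drugs, measured 38.7 and 38.1 CPM at 0 h, 33.11 and 34.05 CPM at 3 h and 21.5 and 21.7 CPM at 6 h. Its groups did not overlap, and the log2 fold change at 6 h was -0.83 ± 0.06 (edgeR adjusted p = 1.51e-07). Its paralog Abcb1b fell by 0.47 (adjusted p = 1.50e-05), and both calls held in all 13 alternatives. How reads shared by the 2 copies were counted is not given in the sources used here. At 3 h neither was called, with adjusted p of 0.201 and 0.377.

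Of 12 genes of tryptophan breakdown, a source of kynurenine ligands of AHR, 5 were tested. At 6 h against 0 h 1 rose and 1 fell, where 9.92% of all genes were called higher and 12.3% lower. Ido2, a dioxygenase, fell by 0.27 at 6 h (adjusted p = 0.0331, called by 6 of 13 alternatives, and with adjusted p of 0.0567 to 0.250 in the 5 of 6 fits without a library that lost it). Kyat3, a kynurenine aminotransferase, rose by 0.32 (adjusted p = 0.0364, called by 9 of 13, and lost without replicate 2 of 0 h at 0.281 and replicate 1 of 6 h at 0.167). DESeq2 called neither (adjusted p = 0.212 and 0.193).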
